A study of Mus musculus with 12 samples.

Results

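The globin clones of a mouse liver cDNA array are 19 measured clones, 18 of alpha-globin and 1 of beta-globin, out of 2151 measured clones and 15600 clones on the array. A clone was taken as globin when its platform entry joined the symbols Hba-a1 and Hba-a2, or Hbb-b1 and Hbb-b2, and when at least 1 array held a value for it. The array carried 20 clones of the alpha entry, of which 18 were measured, and 2 of the beta entry, of which 1 was measured. The members were therefore chosen by measured values in part. A clone had to hold values, and entries were matched to spots in reversed order, a numbering inferred in earlier work from which clones held values and from the likeness of clones of 1 gene. Read by equal spot number, 1 globin clone was measured. How many globin clones were measured, and how alike they were, is for that reason given below as a description.

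Each array set liver RNA of null mice against RNA of a wild-type pool in 2 colours, with 4 arrays per genotype and 12 in all. HpHx-null mice were Hp-/-Hx-/- and lacked both haptoglobin and hemopexin, Hp-null mice were Hp-/- and lacked haptoglobin, Hx-null mice were Hx-/- and lacked hemopexin, and wild-type mice carried both genes. All were littermates from intercrosses of Hp+/-Hx+/- parents on a mixed C57/BLJ6 X 129Sv background, untreated, and adult with no age given. Livers were perfused with saline before RNA was made, and those of several mice were pooled for each genotype. The labels name 1 pool for each genotype, so the 4 arrays of a null repeat 1 comparison of pools. Each p-value covers the spread between arrays and not that between mice. The labels could not be checked against the deleted genes, for which the annotation holds no entry.

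Hemoglobin, the oxygen carrier of red blood cells, is assembled from alpha and beta chains, each of which holds a heme group. When red cells break, haptoglobin binds the hemoglobin that is set free in plasma and hemopexin binds free heme, and both complexes are taken up, largely in the liver and by macrophages. Globin mRNA is made mainly by erythroid precursors and persists in reticulocytes. In adult mice Hba-a1 and Hba-a2 give the alpha chain and Hbb-b1 and Hbb-b2 the adult beta chains. In RNA of a whole liver, a change in the number of cells of a type and a change of RNA per cell cannot be told apart.

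The alpha entry joins Hba-a2, Hba-a1 and H3f3a, which codes for the replacement histone H3.3, so no single gene can be named for an alpha clone. No clone of H3f3a alone was on the array, and 0 of 3 clones of H3f3b, the other gene of that histone, were measured. Other globin entries were on the array without values: Hbb-b1 alone with 2 clones, the embryonic beta-type gene Hbb-y with 4 and the embryonic alpha-type gene Hba-x with 1. The promoters of the genes in the entry are shown because an alpha clone cannot be assigned among them. They were taken from RefSeq (GRCm38.p6) as the 250 bases before each start, and 3 of the 5 genes of both entries were matched. The alpha genes lie on chromosome 11 and H3f3a on chromosome 1. Capitals mark the box CCAAT, the box CACCC, the GATA-type letters GATAA and the TATA-type letters ATATAA on either strand; these motifs do not overlap each other here. The lines are Hba-a1 (chr11:32283422-32283671, plus strand), Hba-a2 (chr11:32296242-32296491, plus strand) and H3f3a (chr1:180813606-180813855, minus strand).
Hba-a1: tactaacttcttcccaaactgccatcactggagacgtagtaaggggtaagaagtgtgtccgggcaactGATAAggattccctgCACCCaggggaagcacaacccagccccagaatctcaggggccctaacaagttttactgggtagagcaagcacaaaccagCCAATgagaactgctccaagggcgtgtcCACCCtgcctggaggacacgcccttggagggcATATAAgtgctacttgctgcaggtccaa
Hba-a2: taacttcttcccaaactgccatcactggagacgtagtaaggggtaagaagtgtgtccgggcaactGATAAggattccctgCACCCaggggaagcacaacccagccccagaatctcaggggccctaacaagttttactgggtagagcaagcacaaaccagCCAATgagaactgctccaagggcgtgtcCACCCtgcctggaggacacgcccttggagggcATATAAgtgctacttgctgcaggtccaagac
H3f3a: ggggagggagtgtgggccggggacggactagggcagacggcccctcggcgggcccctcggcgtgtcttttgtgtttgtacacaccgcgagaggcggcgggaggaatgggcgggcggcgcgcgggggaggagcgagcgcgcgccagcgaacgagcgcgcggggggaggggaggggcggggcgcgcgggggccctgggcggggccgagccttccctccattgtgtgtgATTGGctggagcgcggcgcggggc
The windows of Hba-a1 and Hba-a2 share an unbroken run of 247 bases at an offset of 3. Hba-a1 held ATATAA at 28 bases before the start, CACCC at 60 and 167, CCAAT at 88 and GATAA at 182, and Hba-a2 held the same letters 3 bases farther out. H3f3a held the reverse complement of CCAAT at 24 bases and none of the other letters searched. Among 32851 promoters of the same length, 33.8% held CCAAT, 52.0% CACCC, 22.6% GATAA and 9.10% ATATAA. A match of letters is a description and shows no binding. Hbb-b1 and Hbb-b2 are named only.

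The deposited values are log ratios of the null and wild-type channels, taken here as log2 since their base is unstated, and their direction is not settled. By the labels the null pool was always in channel 2, with Cy5 on replicates 1 and 2 and Cy3 on replicates 3 and 4. Over all clones, arrays of 1 genotype with the same labelled dye correlated at -0.79 and -0.53 in Hp-null and at -0.60 and -0.17 in HpHx-null, against 0.83 and 0.84 in Hx-null. The first component of the values, with 72.0% of their sum of squares, split the arrays into 2 blocks of 6, each with 2 arrays of every null. Block A held HpHx-null replicates 1 and 4, Hp-null 2 and 3 and Hx-null 1 and 2, and block B held the others. Arrays of 1 genotype correlated at 0.64 to 0.90 within a block and at -0.79 to -0.11 across blocks. Below, a positive or negative ratio means the sign as deposited, and values with arrays turned follow later. Ratios are relative to the median of their array, and a value is the mean of the duplicate spots of a clone.

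In the deposited sign, alpha-globin clones had positive ratios in Hx-null, smaller positive ratios in HpHx-null and ratios slightly below 0 in Hp-null. The mean log2 ratio of the 18 clones had a median of 0.41 in HpHx-null (range 0.05 to 0.53), -0.12 in Hp-null (-0.21 to 0.14) and 1.01 in Hx-null (0.06 to 1.50). All 18 means were positive in HpHx-null and in Hx-null, and 17 of 18 were negative in Hp-null. If the base is 2 as taken here, a value of 1.01 stands for a 2.01-fold ratio between the channels. Over all features, counting a gene once and each clone that could not be given 1 gene by itself, the same medians were -0.01, -0.02 and 0.00 in the same order of genotypes, with SDs over features of 0.263, 0.198 and 0.247.

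**Figure D1:**
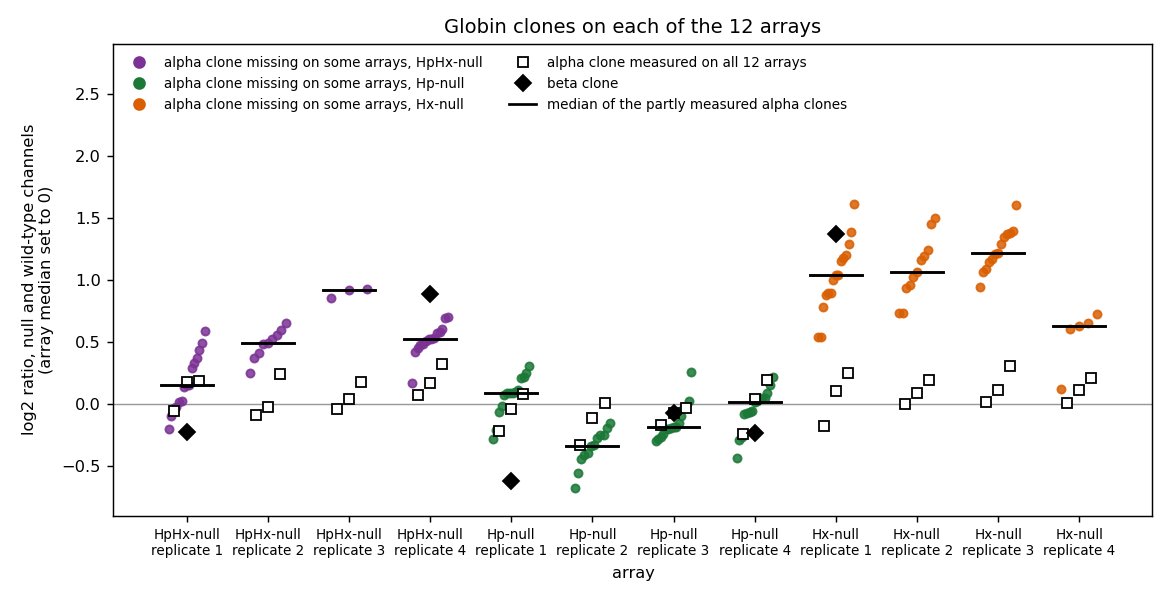
Log2 ratio of every measured globin clone (vertical axis, array median set to 0) on each of the 12 arrays (horizontal axis), with HpHx-null arrays at left, then Hp-null, then Hx-null. Circles are alpha clones missing on some arrays, open squares the 3 alpha clones measured on all arrays, diamonds the beta clone and bars the median of the circles; the circles lie highest on Hx-null replicates 1 to 3 and nearest to 0 or below it on the Hp-null arrays.

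The alpha clones fell into a set of 15 that lacked a value on at least 1 array and a set of 3 measured on all 12. The 15 partly measured clones had medians of 0.43 in HpHx-null, -0.13 in Hp-null and 1.13 in Hx-null, where their means spanned 0.70 to 1.50. Of all features, 99.4% had a mean ratio below that Hx-null median. The 3 fully measured clones had means of 0.05 to 0.17 in HpHx-null, -0.21 to 0.00 in Hp-null and 0.06 to 0.18 in Hx-null. No mean of a fully measured clone in Hx-null reached the lowest mean of a partly measured one.

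The highest alpha clone in Hx-null, clone 24219 (clones are numbered by their first spot), is given in single arrays. It was picked for its Hx-null mean, so its ratio, gap and p-values are a description and no further support. Its log2 ratios were 0.16, 0.49 and 0.51 on HpHx-null replicates 1, 2 and 4, then 0.31, -0.25, -0.27 and 0.04 on the 4 Hp-null arrays, and 1.61, 1.50 and 1.40 on Hx-null replicates 1 to 3. Each Hx-null value lay above every value of the other nulls, whose ranges overlapped each other. Against wild-type its fitted ratio in Hx-null was 1.49 (SE 0.15, limma, adjusted p = 0.00972), with all 3 measured arrays positive. The fitted difference of Hp-null minus Hx-null was -1.54 (SE 0.20, limma, adjusted p = 0.0397).

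The clone in the middle of the Hx-null order, 11831, was measured on all 4 Hx-null arrays. It had 0.14, 0.49 and 0.45 on HpHx-null replicates 1, 2 and 4, next to 0.11, -0.41, -0.29 and 0.02 in Hp-null, and 1.04, 1.24, 1.15 and 0.72 in Hx-null. The lowest Hx-null array was above the highest array of either other null, while HpHx-null was above Hp-null on every array measured. The fitted Hx-null ratio was 1.04 (SE 0.13, limma, adjusted p = 0.00972), and Hp-null minus Hx-null was -1.18 (SE 0.19, limma, adjusted p = 0.0397).

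The 3 clones measured on all arrays overlapped between genotypes in most comparisons. Clone 5359, the lowest in Hx-null, had -0.06, 0.24, 0.18 and 0.32 in HpHx-null, -0.22, -0.33, -0.03 and -0.24 in Hp-null, and -0.18, 0.09, 0.11 and 0.21 in Hx-null. Its Hx-null values spanned 0, and replicate 1 reached into the Hp-null range. Clone 19055 had 0.17, -0.09, 0.04 and 0.17 in HpHx-null, 0.08, -0.12, -0.17 and 0.19 in Hp-null, and 0.25, 0.00, 0.02 and 0.00 in Hx-null, where replicate 1 stood apart. Clone 24847 had 0.19, -0.02, -0.04 and 0.07 in HpHx-null and -0.04, 0.01, -0.07 and 0.04 in Hp-null. Its Hx-null values were 0.10, 0.19, 0.31 and 0.11, all above Hp-null and overlapping with HpHx-null. None of these 3 passed the test in any comparison made.

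**Figure D2:**
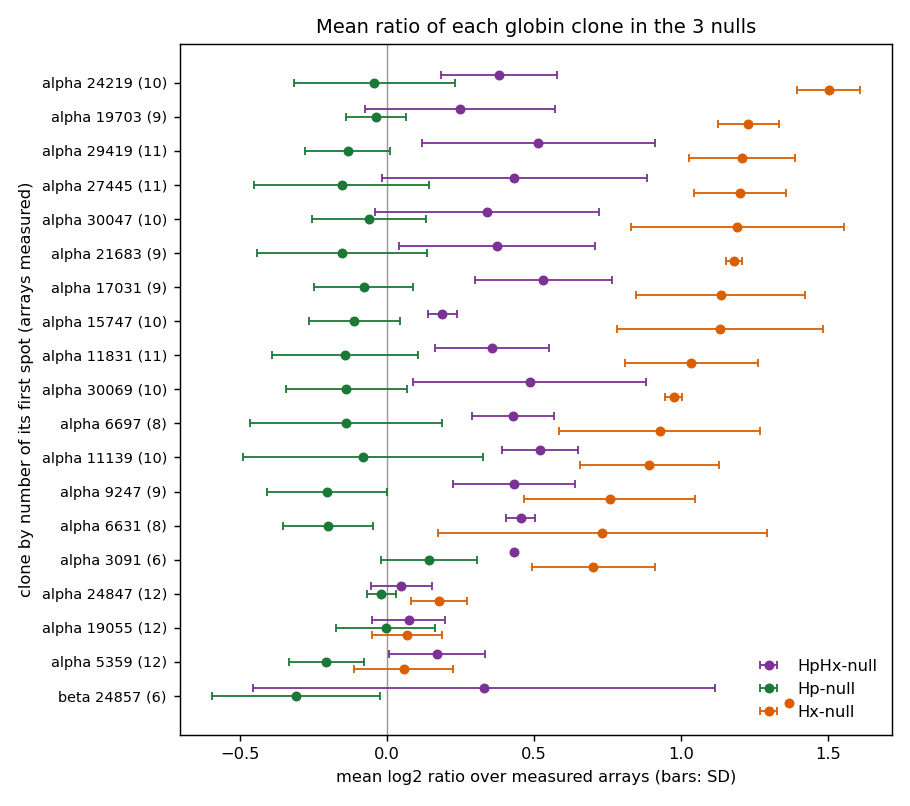
Mean log2 ratio (horizontal axis) of each globin clone (vertical axis, number of measured arrays in brackets) in HpHx-null, Hp-null and Hx-null, with bars for the SD over measured arrays; a point without a bar rests on 1 array. From the top down to clone 3091 the Hx-null mean is the highest of the 3, between 0.70 and 1.50, and for the 3 clones measured on all arrays the means lie within 0.21 of 0.

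Beta-globin was measured by clone 24857 alone, through 1 of its spots and on 6 arrays. It had -0.22 and 0.89 on HpHx-null replicates 1 and 4, which differed in sign, -0.62, -0.07 and -0.23 on Hp-null replicates 1, 3 and 4, and 1.37 on Hx-null replicate 1. The HpHx-null mean was 0.33 ± 0.79 (SD, n = 2) and the Hp-null mean -0.31 ± 0.28 (SD, n = 3). With 1 value in Hx-null the clone could be tested in Hp-null only, where the fitted ratio was -0.43 (SE 0.17, limma, adjusted p = 0.999). Over its 6 arrays its correlation with 14 partly measured alpha clones had a median of 0.84 (range 0.72 to 0.95). The single Hx-null value was the highest of the 6, and the correlation without it was not computed. These values come from the same hybridisations and arrays.

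Array by array, the alpha ratios were lowest in Hp-null and highest in Hx-null. The median of the partly measured alpha clones was 0.15, 0.49, 0.92 and 0.53 on HpHx-null replicates 1 to 4, next to 0.09, -0.34, -0.19 and 0.02 on the Hp-null arrays and 1.04, 1.06, 1.22 and 0.63 on the Hx-null arrays. Each Hp-null median lay below all those of the other nulls, and HpHx-null overlapped Hx-null through its replicate 3 and Hx-null replicate 4, the arrays with fewest clones. HpHx-null replicate 3 rested on 3 of these clones, which had a median of -0.03 on replicate 1, 0.60 on replicate 2 and 0.52 on replicate 4. Hx-null replicate 4 rested on 5, which had 0.87 on replicate 1 and 1.15 on replicate 3, and 1 of them was measured on replicate 2, at 1.24. The same clones thus differed between arrays of 1 null. The part of the missing clones in the overlap was not tested.

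The comparison of Hx-null with wild-type asks which transcripts differ in liver when hemopexin is missing. With the labelled dye as a term, 8 of 16 alpha clones tested passed an adjusted p of 0.05, all with positive ratios of 1.04 to 1.49 (limma, adjusted p = 0.00972 to 0.0261). Over all features 0.643% were called in this comparison, 12 of 1865, so alpha clones were 8 of the 12. The other 4 were Wdr7, a WD-repeat protein gene, and clones 25143, 27401 and 8627, which have no single symbol. With the block as a term in place of the dye, 12 of 16 alpha clones were called, with ratios of 0.70 to 1.53, beside 2.09% of all features. With the labelled dye as the term 0 alpha clones and 0 features were called without Hx-null replicate 1, 2 or 3. With the block as the term 9 to 15 of 16 to 18 alpha clones tested were called whichever array was left out. Over all features 24 to 81 of 1887 to 1997 were called in the same fits. The blocks were defined from these same ratios and were not redefined when an array was left out. For that reason p-values with the block as a term can be too small. Beyond the test, 15 of 16 alpha clones were positive on all measured Hx-null arrays, the exception being clone 5359, beside 5.42% of all features.

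In Hp-null against wild-type 0 of 17 alpha clones were called with the labelled dye as a term (limma). An unadjusted p under 0.05 was found for 0 of 17 alpha clones and 48 of 2017 features. In this comparison 0% of 2017 features were called. With the block as a term 0 of 17 alpha clones and 2.78% of features were called. All 17 fitted ratios were negative, between -0.21 and 0.00, and 3 clones were negative on all measured Hp-null arrays (29419, 5359 and 6631), beside 4.21% of features. The same linear model without moderation over features called 0 as well.

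In HpHx-null against wild-type 0 of 12 alpha clones and 0% of 1711 features were called with the labelled dye as a term (limma). An unadjusted p under 0.05 was found for 7 of 12 alpha clones and 93 of 1711 features. The unmoderated test called 0 as well. With the block as a term 4 of 12 alpha clones were called, with positive ratios of 0.43 to 0.56 (limma, adjusted p = 0.0138 to 0.0385), beside 5.61% of features. These 4 calls were lost without HpHx-null replicate 3 or 4, where 31 and 49 features were called. Without its replicate 2, 2 alpha clones were called, beside 71 features. On all measured HpHx-null arrays 5 of 12 alpha clones were positive, beside 6.37% of features.

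The single nulls were then set against each other, which asks which liver transcripts differ between loss of haptoglobin and loss of hemopexin. Both comparisons share the wild-type pool. For Hp-null minus Hx-null, 7 of 15 alpha clones were called with the labelled dye as a term, all negative at -1.54 to -1.18 (limma, adjusted p = 0.0397 to 0.0457), beside 0.595% of features. With the block as a term 10 of 15 were called, at -1.58 to -0.92, beside 1.14% of features. With the labelled dye, 5 of 18 alpha clones were called without Hx-null replicate 4, beside 9 of 1981 features, and 0 without any other array in turn. With the block, 8 to 14 of 16 to 18 alpha clones were called, beside 16 to 69 of 1887 to 1997 features. The 7 calls also went to 0 with the unmoderated test, the values as deposited and quantile scaling. They went to 0 as well with the first spots alone or the arrays of both genotypes alone. In each of these settings 0 features were called. With the second spots alone 1 alpha clone was called, beside 2 of 1775 features. For 13 of 15 clones every Hp-null array lay below every Hx-null array, the exceptions being 19055 and 5359, beside 1.57% of features.

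The same difference was present within each block and each labelled dye. In Hx-null the 2 splits are the same, replicates 1 and 2 against 3 and 4, so both reuse the same Hx-null arrays. Among partly measured clones the difference of Hp-null minus Hx-null had a median of -1.24 in block A, where 15 of 15 clones were below 0, and of -1.06 in block B, where 13 of 13 were. On arrays with the null in Cy3 the median was -1.25, and with the null in Cy5 -1.23, with 13 of 13 and 14 of 14 clones below 0. These counts are of clones that may detect the same transcript. Over all 1848 features, 47.0% of the fitted differences of Hp-null minus Hx-null were positive with the labelled dye as a term. Between blocks the alpha clones differed by a median size of 0.196 in HpHx-null, 0.254 in Hp-null and 0.206 in Hx-null, beside 0.469, 0.613 and 0.496 over all features, from which the blocks were defined; no test of this was made.

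HpHx-null minus Hx-null sets the loss of both proteins against the loss of hemopexin alone. With the labelled dye as a term 0 of 10 alpha clones and 0% of 1654 features were called (limma), and the unmoderated test called 0. An unadjusted p under 0.05 was found for 6 of 10 alpha clones and 15 of 1654 features. With the block as a term 2 of 10 were called, at -1.12 and -0.94 (limma, adjusted p = 0.0215 and 0.0239), beside 0.181% of features. The count went to 0 without HpHx-null replicate 1 or 2, Hp-null replicate 2 or 3 or Hx-null replicate 1. In each of these fits 0 features were called. It went to 1 without Hx-null replicate 2 or 3, where 1 feature was called in all. Without HpHx-null replicate 4 it went to 3, where 4 features were called in all. Every HpHx-null array lay below every Hx-null array for 7 of 10 clones, the exceptions being 19055, 24847 and 5359, beside 0.846% of features. Among partly measured clones the median difference was -0.75 in block A (15 of 15 below 0) and -0.79 in block B (7 of 7 below 0). Over all 1654 features, 49.3% of the fitted differences were positive with the labelled dye as a term, from all arrays and not within a block. Every HpHx-null array lay above every Hp-null array for 3 of 12 clones, beside 0.828% of features.

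**Figure D3:**
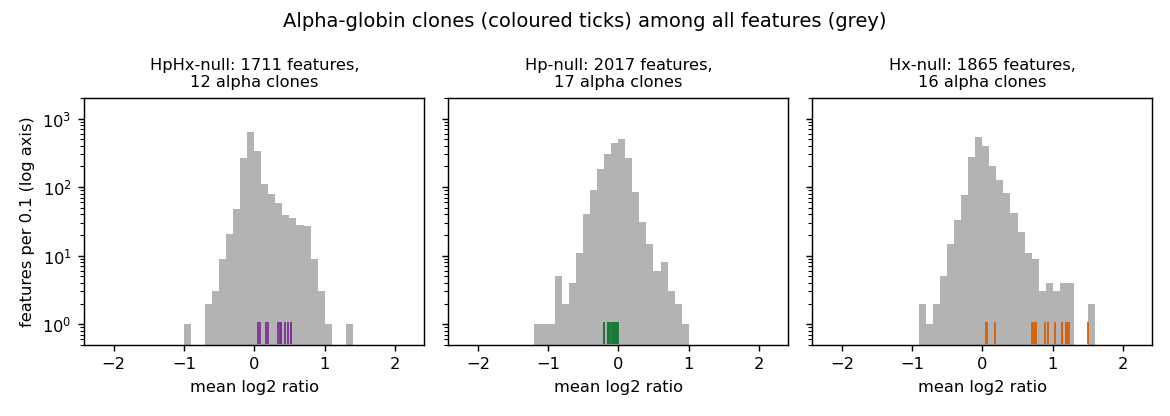
Number of features (vertical log axis) by mean log2 ratio (horizontal axis, bins of 0.1) in HpHx-null, Hp-null and Hx-null, with coloured ticks for the alpha-globin clones measured on at least 3 arrays of that genotype. The ticks lie at 0.05 to 0.52 in HpHx-null, just below 0 in Hp-null and mostly in the sparse right tail in Hx-null.

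With the sign of some arrays turned, no alpha clone was called. With the arrays turned by their labelled dyes, the median alpha ratio was -0.059 in HpHx-null, -0.0052 in Hp-null and 0.12 in Hx-null, and 0 alpha clones and 0 features were called in any comparison (limma). With the arrays turned by the blocks it was 0.089, -0.12 and 0.12 in the same genotypes, and again 0 alpha clones were called in any comparison. This form called many other features, 677 of 1711 in HpHx-null, 1105 of 2017 in Hp-null and 838 of 1865 in Hx-null against wild-type (limma), and 0 in both comparisons between nulls. For 15 of 16 alpha clones the ratios were positive on all measured Hx-null arrays in the deposited form, the exception being 5359, so turning some of those arrays brings their mean towards 0. Which form is the ratio of null over wild-type was not tested.

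Missing values were more frequent among alpha clones than among all clones in each null. The alpha clones lacked 26.4% of their values in HpHx-null, 5.56% in Hp-null and 22.2% in Hx-null, beside 15.2%, 4.45% and 10.6% of all measured clones. By array, values were present for 18, 12, 6 and 17 of the 18 clones on HpHx-null replicates 1 to 4, for 17, 15, 18 and 18 in Hp-null and for 18, 14, 16 and 8 in Hx-null. The arrays with fewest alpha values were those with fewest values of any clone, HpHx-null replicate 3 with 72.1% and Hx-null replicate 4 with 74.2% of all measured clones. Clones with a missing value were then looked at where at least 3 arrays of the genotype held a value, 624 in HpHx-null, 953 in Hp-null and 791 in Hx-null. Among them the share with a mean ratio above 0.5 was 6.25%, 1.78% and 5.44% in that order. Of the 1162 clones measured on all arrays it was 5.85%, 0.344% and 1.81%. The share below -0.5 was 0.962%, 2.62% and 1.39% in the same order, beside 0.172%, 1.12% and 0.0861%. The part that missing values play in the ratios was not tested.

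**Figure D4:**
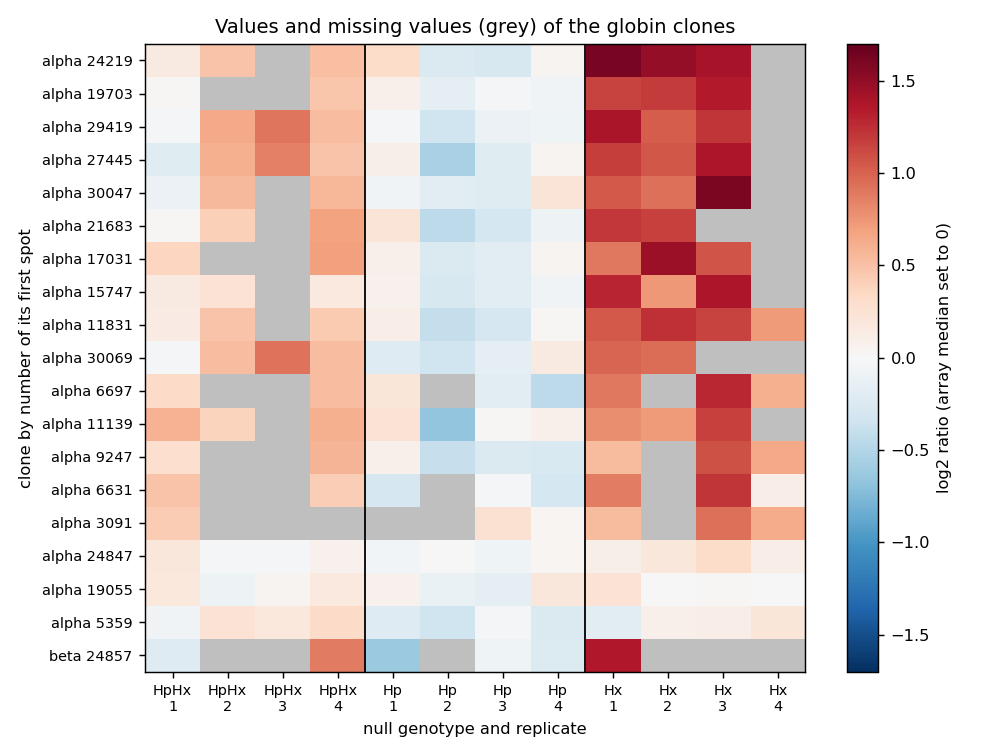
Log2 ratio (colour, with its scale at the right) of each globin clone (vertical axis) on each array (horizontal axis, HpHx-null, Hp-null and Hx-null from left to right), with missing values in grey. Grey cells gather on HpHx-null replicates 2 and 3 and Hx-null replicate 4, and the 3 clones without grey cells stay pale on every array.

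Among themselves the partly measured alpha clones were alike from array to array. Of 87 pairs that shared at least 7 arrays the median correlation was 0.92 (range 0.76 to 0.99), and 85 lay above 0.8. The 3 fully measured clones correlated at a median of 0.18 with each other over 12 arrays, and at a median of 0.47 with the partly measured ones. Clones share each array's hybridisation and may detect the same transcript, and their likeness had a share in the choice of numbering. Duplicate spots were available for 14 of the 19 globin clones, and their 139 paired values differed by a median of 0.132, beside 0.0842 over all clones, which gives an SD of 0.168 for 1 spot. The largest difference between duplicates was 0.83. Between arrays of 1 null, the SD of a partly measured clone had a median of 0.22 in HpHx-null, 0.20 in Hp-null and 0.22 in Hx-null.

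Genes with the most similar pattern over the arrays were looked up by correlation with the median alpha profile, among 773 named genes and 1664 features with at least 10 shared arrays. Wdr7 came first (r = 0.97, 10 arrays), with mean ratios of 0.49 ± 0.34 in HpHx-null (SD, n = 3), -0.09 ± 0.17 in Hp-null (SD, n = 4) and 1.17 ± 0.13 in Hx-null (SD, n = 3). Its order of genotypes was that of the partly measured alpha clones, at about their level. It was followed by Fau, which codes for a ribosomal fusion protein (0.82), Lima1, an actin-binding protein gene (0.78), Cyb5a, which codes for cytochrome b5 (0.69), and Fcgr1, the high-affinity Fc receptor of macrophages (0.67). After the mean of each block was removed, the first 5 were Wdr7 (0.98), the ferritin light chain gene Ftl1 (0.89), the cytochrome oxidase subunit gene Cox7c (0.86), Fau (0.84) and the clock-related gene Timeless (0.83). Of clones without a single symbol, 25143 (0.97), 8627 (0.95) and 27401 (0.88) came closest before the block means were removed. All share the arrays with the alpha clones, and of the 8 different genes named here only Wdr7 had a mean ratio in Hx-null above 0.70, the lowest among the partly measured alpha clones.

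Other genes of erythroid cells were mostly without values. Of 30 erythroid genes listed, 12 were on the array and 2 were measured. Tfrc, the receptor that takes up transferrin iron, had -0.12 ± 0.24 in HpHx-null, -0.02 ± 0.27 in Hp-null and 0.01 ± 0.22 in Hx-null (SD, n = 4 each). Prdx2, an abundant red cell peroxidase, had -0.11 ± 0.11 in HpHx-null (SD, n = 3), 0.05 ± 0.13 in Hp-null and -0.08 ± 0.09 in Hx-null (SD, n = 4 each). All these means lay between -0.12 and 0.05, and neither gene was called in any null with either term (limma). Of 8 genes of heme synthesis 1 was measured, Urod, at -0.01, 0.08 and 0.00 in HpHx-null, Hp-null and Hx-null. Erythroid-specific membrane and transcription factor genes had no values, so their part in the globin ratios was not tested.

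Blood and liver cell markers gave few further values. Of 17 leukocyte genes 1 was measured, the granule protein gene Ltf, at -0.03 in HpHx-null, -0.02 in Hp-null and -0.19 in Hx-null. Of 11 Kupffer cell genes 2 were measured. Fcgr1 had 0.52 ± 0.40 in HpHx-null, -0.08 ± 0.26 in Hp-null and 0.43 ± 0.12 in Hx-null (SD, n = 4 each), and was called with the block as a term in HpHx-null (limma, adjusted p = 0.0140) but not with the labelled dye. Fcer1g had means of -0.08 in HpHx-null, 0.01 in Hp-null and -0.04 in Hx-null. No platelet or endothelial gene of the lists was measured. Of 19 hepatocyte genes 7 were on the array and 6 were measured, albumin among them. Their mean ratios had a median of 0.49 in HpHx-null (0.05 to 1.37), -0.09 in Hp-null (-0.55 to 0.53) and 0.54 in Hx-null (-0.05 to 0.66). With the labelled dye 0 of them were called in any null (limma), and with the block 3 were called in HpHx-null, 1 in Hp-null and 1 in Hx-null. The median of these 6 genes was below 0 in Hp-null only, but there Serpina1e (0.53) and Bhmt (0.18) were above 0. The SDs of the 6 genes over arrays were 0.65 to 1.43 in HpHx-null, 0.48 to 1.78 in Hp-null and 0.39 to 1.66 in Hx-null. Where an array lacked a value, the fit with the block gave ratios nearer 0 than the mean. Bhmt had 0.42 against a mean of 0.73 in HpHx-null, and Mat1a -0.33 against -0.50 in Hp-null. In Hx-null Ttr had 0.21 against 0.42 and Mat1a 0.49 against 0.66. With the median alpha profile Mat1a correlated at 0.43 and Ttr at 0.31, and Alb, Apoa1, Serpina1e and Bhmt at -0.06 to 0.10. The part of Kupffer cell and hepatocyte RNA in the globin ratios was not tested.

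Genes of heme and iron handling were represented by 4 of 11. Hebp1, a heme-binding protein gene, had 0.73 ± 0.54 in HpHx-null, 0.45 ± 0.55 in Hp-null and 0.37 ± 0.46 in Hx-null (SD, n = 4 each). Ftl1 had -0.38 ± 0.64 in HpHx-null, -0.94 ± 0.67 in Hp-null and -0.27 ± 0.72 in Hx-null (SD, n = 4 each). With the labelled dye 0 of the 4 were called in any null (limma); with the block, Hebp1 and Ftl1 were called in HpHx-null and Ftl1 in Hp-null. The ferritin heavy chain gene Fth1 had -0.15, -0.37 and -0.25 in HpHx-null, Hp-null and Hx-null. Ftl1 had the alpha-globin order of genotypes, highest in Hx-null and lowest in Hp-null, but at negative ratios throughout, and Hebp1 and Fth1 had other orders.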

How the data were processed

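The authors deposited 1 table of log ratios for 31200 spots and 12 arrays, taken here as log2 values; their base, direction, normalization and filter on weak spots are unstated. Per the labels' protocols, RNA of pooled livers was labelled with Cy3 or Cy5 and 4 arrays set each null against wild-type RNA, with swapped dyes. From these values, neighbouring duplicate spots were averaged, which left 2151 of 15600 clones (13.8%) with 1550 to 2151 per array, and array medians were subtracted. The number of arrays limits the precision. Entries were matched to spots in reversed order (spot k with the entry of 31201 minus k), and clones of 1 symbol were averaged to 2052 features, 918 of them named genes.

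All 12 arrays were fitted with limma 3.58.1 in R 4.3.3 (lmFit, robust eBayes), with 1 coefficient per genotype and the labelled dye as a term, Benjamini-Hochberg adjustment over all features tested and calls at an adjusted p under 0.05. Testing needed values on 3 or more of the 4 arrays per genotype in the comparison, or 2 with an array left out. In an alternative fit the block, from the sign of the first component, replaced the dye. The block comes from the ratios that are tested, so p-values with this term can be too small. The fit was tested on simulated data first. These held a dye effect but no block effect, so they cannot show how the fit performs with the blocks seen here. Other alternatives changed the centring, direction, spots, filter, test and arrays. Same-numbered arrays of different nulls correlated at -0.88 to 0.87 (12 pairs, 4 above 0.1), so the replicate numbers were not taken to pair arrays.

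Named in full were the beta clone, the alpha clones measured on all arrays, those with the highest, middle and lowest Hx-null mean among those tested, the 5 genes of most similar pattern under each likeness measure, and the measured genes of the erythroid, heme and blood cell lists. The members and lists were chosen with earlier results of these data known.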

Additional observations from a re-analysis of the deposited data

Results flagged for a closer look

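On clone 19055, which was measured on all arrays, the Hx-null replicate 1 value of 0.25 stood far from the other Hx-null arrays, which had 0.00, 0.02 and 0.00. It was the only one of 86 groups of 4 arrays looked at (globin clones, marker genes and genes of similar pattern) in which an array stood apart by this measure, and chance marks about 1 in 20 such groups.

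The alpha-globin ratio differed between Hp-null and Hx-null for 7 clones by limma with the labelled dye as a term. Over all features 11 of 1848 were called in this comparison. The fitted differences of Hp-null minus Hx-null were -1.54 for clone 24219, -1.40 for 27445, -1.37 for 29419, -1.31 for 30047, -1.29 for 19703, -1.26 for 15747 and -1.18 for 11831. All these clones lacked a value on at least 1 array, and the direction depends on the unsettled direction of the ratios. No alpha clone was called with the unmoderated test, the values as deposited or quantile scaling. With 1 array left out, calls remained only without Hx-null replicate 4, for 5 of 18 clones beside 9 of 1981 features. Without a dye term 6 alpha clones were called, and with the block as the term 10 of 15, beside 21 of 1848 features.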

How the results depend on the processing

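For Hx-null against wild-type the 8 alpha calls became 4 with the values as deposited and 3 with quantile scaling, beside 7 and 6 of 1865 features. They became 0 with the replicate number as a block (0 of 1864 features) and with arrays turned by the labelled dyes (0 of 1865 features). Arrays turned by the blocks also gave 0, where 838 of 1865 features were called. Among clones measured on all 12 arrays, of which 3 are alpha clones, 0 were called, beside 0 of 1129 features. With the Hx-null arrays alone 12 of 16 were called, beside 118 of 1865 features. Leaving out 1 array gave 0 to 8 with the labelled dye and 9 to 15 with the block as a term. Over all features the calls were 0 to 13 and 24 to 81. For Hp-null minus Hx-null the 7 calls became 1 with the second spot alone, beside 2 of 1775 features. They became 0 with the replicate block, as deposited, quantile scaling, either turning, the first spot alone, and clones measured on all 12 arrays. The unmoderated test and the arrays of both genotypes alone also gave 0. In each of these settings with 0 alpha calls, 0 features were called. Leaving out 1 array gave 0 to 5 with the labelled dye and 8 to 14 with the block, beside 0 to 9 and 16 to 69 features. For HpHx-null against wild-type the block term gave 4 calls (0 to 5 with an array left out, beside 31 to 99 features). Against Hx-null it gave 2 (0 to 3, beside 0 to 4 features). The labelled dye gave 0 in both. Hp-null against wild-type gave 0 in all settings run. No replicate block changed the comparisons that had 0 calls.

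The Hx-null median of 1.01 became 0.12 under either turning and 0.067 for clones measured on all arrays. The HpHx-null median of 0.41 became -0.059 with arrays turned by the dyes, 0.089 turned by the blocks and 0.075 for clones measured on all arrays. The beta clone became -0.56 in HpHx-null with arrays turned by the dyes and 2.10 in Hx-null with the replicate block, which estimates it from 1 array. Within its wide spread over arrays it also went to -0.22 and 0.89 in HpHx-null without replicate 4 or 1, and to 0.26 in Hp-null with arrays turned by the blocks, against -0.31. Turning changes the sign of some arrays by construction; for the other changes the cause was not tested. Read by equal spot number, 1 globin clone was measured in place of 19. Added after seeing the data were the block term with an array left out, the turning by blocks and the median over clones missing on at least 1 array.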
